A study of Mus musculus with 8 samples.

Results

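Gata3, Gfi1 and Areg are genes linked to type 2 helper (Th2) T cells, and their transcripts were measured in 8 RNA-seq libraries of CD4 T cells after transfer into mice. They were found as the rows of the deposited gene count table whose symbol equals one of 7 listed names. Rows were found for 3 of the 7 among the 11354 genes of the table. Il13, Il5, Ptgdr2 and Il24, the other listed names, are not analysed here, so no level or limit can be given for the cytokines that define the Th2 type.

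The donor cells are labelled Wild Type CD4 T cells in 4 libraries and Nlrp6-/- CD4 T cells in the other 4, all of the strain background Black6. All hosts were RAG-/-, a genotype that leaves a mouse without T and B cells of its own but with its other white blood cells. Hosts are numbered 1, 2, 4 and 5 under each label, and libraries are called WT 1 to WT 5 and KO 1 to KO 5 after label and host, so that WT and KO stand for what the labels say. One field of the labels gives the host spleen and the protocol gives the colonic lamina propria. The ages of the mice, the Nlrp6 allele and the time after transfer were not given in the labels.

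Helper T cells take on types that are named after the cytokines they make, and the Th2 type makes interleukins 4, 5 and 13, which act against worms and in allergy. Gata3 encodes the zinc-finger transcription factor that opens and activates the Th2 cytokine genes, and all T cells need some of it to develop. Gfi1 encodes a zinc-finger repressor that interleukin 4 signalling induces and that favours the growth of Gata3-high cells. Areg encodes amphiregulin, a ligand of the epidermal growth factor receptor with a part in tissue repair, which Th2 cells, regulatory T cells, group 2 innate lymphoid cells, mast cells, basophils and epithelium can all make.

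The sequences before the start sites are shown first, because they hold the motifs named below and differ between the 3 genes. Each line gives the 250 bases before the start from RefSeq (GRCm38.p6), on the strand of the gene, with capitals for TGACGTCA (the cAMP response element), AATC (the core that Gfi1 binds) and GATA, searched on both strands. The windows are chr2:9878601-9878850 on the minus strand for Gata3, chr5:107725806-107726055 on the minus strand for Gfi1 (the outer of its 2 annotated starts) and chr5:91139349-91139598 on the plus strand for Areg.
Gata3: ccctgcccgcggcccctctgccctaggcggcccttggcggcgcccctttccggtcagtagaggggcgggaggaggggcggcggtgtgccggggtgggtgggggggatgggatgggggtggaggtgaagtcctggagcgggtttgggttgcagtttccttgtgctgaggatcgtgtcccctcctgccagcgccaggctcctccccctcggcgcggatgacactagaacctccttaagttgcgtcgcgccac
Gfi1: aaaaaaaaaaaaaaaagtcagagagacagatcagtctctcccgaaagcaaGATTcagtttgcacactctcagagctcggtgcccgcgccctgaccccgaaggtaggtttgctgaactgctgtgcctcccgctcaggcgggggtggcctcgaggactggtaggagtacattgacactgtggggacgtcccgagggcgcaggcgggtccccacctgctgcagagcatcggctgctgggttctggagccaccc
Areg: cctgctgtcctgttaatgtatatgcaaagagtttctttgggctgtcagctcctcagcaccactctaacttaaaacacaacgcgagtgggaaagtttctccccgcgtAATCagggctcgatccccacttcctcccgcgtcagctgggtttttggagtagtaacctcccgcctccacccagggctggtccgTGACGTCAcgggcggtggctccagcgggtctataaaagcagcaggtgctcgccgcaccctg

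The Areg window holds a full cAMP response element, whose first base lies 61 bases before the start, and 1.55% of the 32851 promoter windows of this length hold one. AATC occurs 1 time in the Gfi1 window (as GATT, its reverse complement) and 1 time in the Areg window, against 69.0% of all windows with at least 1 match. None of the 3 letter strings is in the Gata3 window, which is 70.0% G or C where the median window is 52.4%. GATA is in none of the 3 windows and in 53.6% of all windows. A match is only a match of letters and shows no binding.

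Libraries held 35198192 to 40310721 counts, and CPM here means counts relative to the TMM-adjusted size of the library. Nlrp6, the gene named in the labels, goes against them: it had 3 to 8 counts in the WT-labelled set and 329 to 648 in the KO-labelled set, so directions below are those of labels and not of genotypes. The T cell markers (9 of 11 with a row) summed to 6530 to 7568 CPM in the WT-labelled set and 6136 to 6684 CPM in the KO-labelled set, with Cd4 and Cd3e among them. Myeloid markers (15 of 15 with a row) summed to 53.6 to 92.3 CPM and 257 to 778 CPM, with none of them at 0. Of these 15 markers, 13 passed the test upward, which is 86.7% against 6.20% of all genes. Their part in the results below was not tested, except where a value is given. Bulk libraries cannot tell fewer cells of a type from less RNA per cell. The labels name no separate animals for the 2 kinds of donor cell, so the p-values cover only how far these 8 differ among themselves, which may in part be technical.

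The comparison of the labels asks whether a trace of the Th2 programme differs between the transferred cells. Whether such a trace is present cannot be told from it, since no reference library of a known helper type was included. Of the 3 genes, Gfi1 was lower in the KO-labelled set, by about the same amount in each, while Gata3 and Areg did not pass the test. With edgeR's quasi-likelihood test, 1 of 3 passed at a Benjamini-Hochberg adjusted p below 0.05, where 10.0% of all genes passed, 6.20% of them upward and 3.84% downward. The log2 fold changes are of the KO-labelled over the WT-labelled set, and the median over all 11354 genes was -0.0026.

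**Figure D1:**
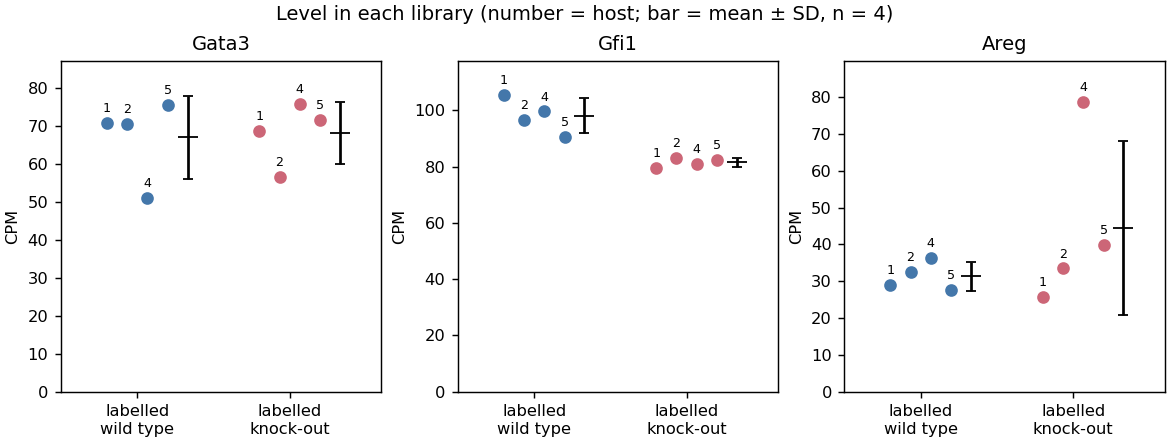
CPM (vertical axis, from 0) of Gata3, Gfi1 and Areg in each library by label, with the host number above each point and the mean ± SD of the 4 libraries as a bar. Gfi1 separates the labels (79.5 to 83.0 against 90.5 to 105 CPM), Gata3 does not, and Areg is set apart by KO 4 at 78.7 CPM.

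Gata3 (Entrez 14462, chr2:9857078-9887953, GRCm38) was at 70.8, 70.6, 51.1 and 75.7 CPM for WT 1, 2, 4 and 5. It was at 68.7, 56.7, 76.0 and 71.6 CPM for KO 1, 2, 4 and 5. Both labels thus have 1 low library and 3 close together, and they overlap over nearly their whole range. The means were 67.1 ± 10.9 and 68.2 ± 8.24 CPM (SD, n = 4 each), which differ by 0.03 ± 0.13 on the log2 scale (SE, edgeR adjusted p = 0.943). The 95% interval of the ratio ran from 0.836 to 1.24, and a ratio inside it is not distinguished from 1. Its direction turned with the library code of the sample descriptions as a term (log2 fold change -0.10, adjusted p = 0.831). The printed span runs upstream beyond the start used for the window above, and the long non-coding RNA genes 4930412O13Rik and 9230102O04Rik overlap it only in that upstream stretch. Which of these exons were counted for Gata3 is not given in the sources used here, nor is the strand setting, so reads from that stretch cannot be told apart.

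Gfi1 (Entrez 14581, chr5:107716655-107725805) was at 105, 96.6, 99.6 and 90.5 CPM for WT 1, 2, 4 and 5. It was at 79.5, 83.0, 81.0 and 82.5 CPM for KO 1, 2, 4 and 5. All 4 KO-labelled libraries lay below all 4 WT-labelled ones, a separation that 16.0% of all genes show in one direction or the other. The means were 98.1 ± 6.22 and 81.5 ± 1.55 CPM (SD, n = 4 each). In edgeR's test the log2 fold change was -0.27 ± 0.05 (adjusted p = 0.00757), a ratio of 0.831 with a 95% interval of 0.770 to 0.898. The call survived all 8 leave-one-out fits, with a highest adjusted p of 0.0274 without KO 1. It also held with the library code in the model, which rests on KO 1 and KO 2 alone (-0.27, adjusted p = 0.0448).

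The change in Gfi1 was small beside most called genes: the median absolute log2 fold change of the 1140 called genes was 0.70, and 15.3% of them changed as little as Gfi1 or less. T cell markers were also a little lower in the KO-labelled set, the median over the 9 being -0.11 on the log2 scale, with a call for Cd247 (-0.40, edgeR adjusted p = 0.0444). Set against the summed T cell markers of the same library, an alternative chosen after the data were seen, Gfi1 was at 14.1 ± 1.03 per 1000 CPM of markers in the WT-labelled set and 12.8 ± 0.539 in the KO-labelled set (SD, n = 4 each). That ratio overlapped between labels and differed by -0.14 on the log2 scale, with a two-sided exact permutation p = 0.0571. The smallest p that the 70 assignments allow is 0.0286, which Gfi1 reached on the CPM scale.

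Areg (Entrez 11839, chr5:91139599-91148432) was at 28.9, 32.5, 36.3 and 27.5 CPM for WT 1, 2, 4 and 5. It was at 25.8, 33.5, 78.7 and 39.7 CPM for KO 1, 2, 4 and 5. KO 1 is the lowest of all 8 and KO 4 is the highest, so the labels overlap. The means were 31.3 ± 3.93 and 44.4 ± 23.6 CPM (SD, n = 4 each), and the SD was 12.6% of the mean in the WT-labelled set and 53.0% in the KO-labelled set. On the log2 scale the difference was 0.50 ± 0.30 (SE, edgeR adjusted p = 0.361), and the 95% interval of the ratio ran from 0.892 to 2.25. Without KO 4 the log2 fold change was 0.08 (adjusted p = 0.807). KO 4 and KO 5, the 2 highest, are also the 2 libraries with code 8 in the sample descriptions, and with that code as a term the log2 fold change was -0.08 (adjusted p = 0.929).

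Other levels that set KO 4 apart within its label are given beside Areg, and their part in it was not tested. Ptgs2, the inducible cyclooxygenase of prostaglandin synthesis, was at 149 CPM in KO 4, 34.1 to 88.9 CPM in the remaining KO-labelled ones and 4.81 to 7.59 CPM in the WT-labelled set. The myeloid markers summed to 778 CPM in KO 4 and to 587 CPM in KO 5, the 2 highest values of the 8. Il10, an anti-inflammatory cytokine gene, was at 40.8 CPM in KO 4 and at 6.34 to 10.3 CPM in the other 3, all below the 68.5 to 133.5 CPM of the WT-labelled set, where Areg was at 27.5 to 36.3 CPM. Foxp3, the regulator of regulatory T cells, was at 5.78 CPM in KO 4, below the 12.0 CPM of WT 5, where Areg was at 27.5 CPM.

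**Figure D2:**
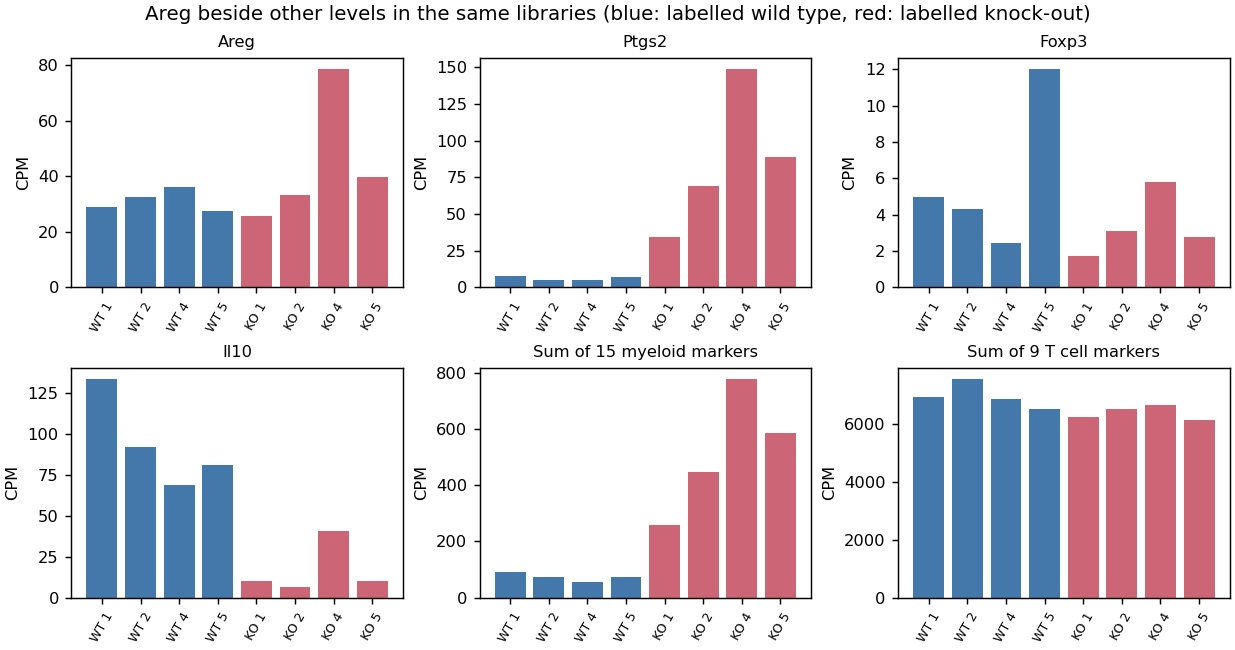
Areg, Ptgs2, Foxp3 and Il10 and the summed myeloid (15) and T cell (9) markers, each in CPM from 0, as bars for the 8 libraries. KO 4 is highest for Areg (78.7 CPM), Ptgs2 (149 CPM) and the myeloid sum (778 CPM). Foxp3 is highest in WT 5 (12.0 CPM) and, within the KO-labelled set, in KO 4 (5.78 CPM).

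Other cells that can make Areg were followed through their markers. Of 12 mast cell markers only Kit and Hdc (histidine decarboxylase) had a row, and their sum was 10.8 to 13.7 CPM in the WT-labelled set and 14.7 to 31.0 CPM in the KO-labelled set. Kit alone overlapped between the labels and did not pass (0.91 on the log2 scale, edgeR adjusted p = 0.0928). The same gene, Hdc, is the 1 basophil marker of 8 with a row. It rose from 3.87 ± 0.277 to 8.14 ± 1.89 CPM (SD, n = 4 each), a log2 rise of 1.07 ± 0.17 with edgeR adjusted p = 0.00282. Neutrophil markers (7 of 10 with a row) summed to 9.71 to 17.6 CPM in the WT-labelled set and 35.0 to 73.8 CPM in the KO-labelled set. Of these 7, 5 passed upward, which is 71.4% against 6.20% of all genes. Which cells gave the rise of Hdc was not tested. Of 8 markers of group 2 innate lymphoid cells 5 had a row and 0 passed in edgeR's test (1 at an unadjusted p under 0.05, with 1 called by DESeq2 and 0 by limma-voom), among them Il1rl1, the interleukin 33 receptor, at 17.3 and 17.4 CPM in the WT-labelled and KO-labelled sets. That sum, 692 to 794 and 689.5 to 840 CPM, is mostly Rora, which T cells also express. Epithelial markers (5 of 8 with a row) summed to 29.2 to 44.2 and 34.2 to 38.9 CPM. Eosinophil and B cell markers are not analysed here.

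Per gene length the 3 genes lay close to each other. On the RPKM scale, CPM divided by the gene length in kilobases, Gata3 was at 20.9 ± 3.38 and 21.2 ± 2.56 in the WT-labelled and KO-labelled sets, Gfi1 at 30.2 ± 1.91 and 25.1 ± 0.477, and Areg at 26.1 ± 3.28 and 37.1 ± 19.7 (SD, n = 4 each). Averaged over the 8 libraries, the level was higher than that of 70.3% of the genes in the table for Gata3, 77.0% for Gfi1 and 79.9% for Areg. Gata3 and Gfi1 did not overlap in RPKM, with 15.9 to 23.6 and 24.5 to 32.4, whereas Areg, at 21.5 to 65.7, overlapped both.

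Among regulators of helper T cell fates, Gata3 lay between Foxp3 and Tbx21. Tbx21, which drives the Th1 type, was at 66.7 ± 7.77 and 66.3 ± 4.79 RPKM in the WT-labelled and KO-labelled sets (SD, n = 4 each). Its relative Eomes was at 56.8 ± 13.7 and 54.9 ± 2.51 RPKM, and the 2 overlapped across libraries. Bcl6, the follicular helper regulator, was at 20.9 ± 2.24 and 25.7 ± 2.25 RPKM and overlapped Gata3. Foxp3 was the lowest of the regulators given here, at 1.51 ± 1.07 and 0.851 ± 0.441 RPKM.

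The ratio of Gata3 to Tbx21 in RPKM hardly varied between libraries, from 0.278 to 0.349. It was 0.311 ± 0.0180 and 0.320 ± 0.0305 in the WT-labelled and KO-labelled sets (SD, n = 4 each, two-sided exact permutation p = 0.60). Gfi1 over Gata3 was 1.48 ± 0.318 and 1.20 ± 0.172 (exact permutation p = 0.143). Adjusted over the 3 ratios given, with Gata3 over Foxp3 (17.6 ± 7.43 and 29.8 ± 14.4, exact p = 0.20) as the last, the lowest of these p-values was 0.30 by exact permutation.

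**Figure D3:**
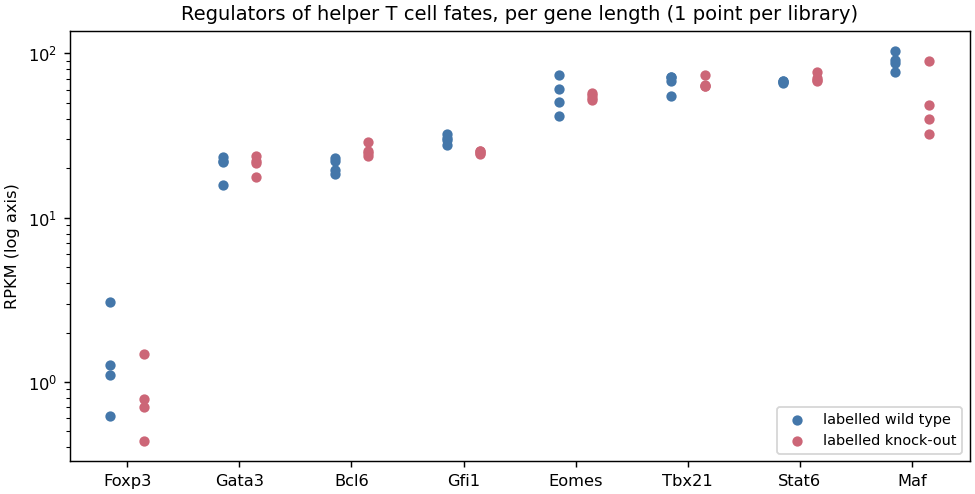
RPKM on a log axis of 8 regulators of helper T cell fates, 1 point per library, blue for WT-labelled and red for KO-labelled. Gata3 (15.9 to 23.6) lies below Tbx21 (55.3 to 73.5) and Eomes (41.7 to 73.9) and above Foxp3 (0.435 to 3.06) in every library.

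Around the 3 genes, a list of 43 Th2 cytokines, regulators and surface receptors had 31 genes with a row, the 3 included. Of these, 2 rose and 5 fell, Gfi1 among them, which is 22.6% against the 10.0% of all genes. The median log2 fold change was -0.08. This list, like those below, was chosen with earlier results of these data known, so its share is no test of the Th2 programme. Of the 9 cytokines 2 had a row and 0 passed in edgeR's test (0 at an unadjusted p under 0.05, and 0 called by DESeq2 or limma-voom): Areg, and Csf2, the gene of a growth factor for myeloid cells, at 11.5 and 10.2 CPM in the WT-labelled and KO-labelled sets. DESeq2 called 4 of the 31 higher, and limma-voom called 8 lower. Maf, an activator of interleukin 4 and 10 transcription, was at 280 to 378 CPM in the WT-labelled set and at 117 to 177 CPM in the KO-labelled set, except for 326 CPM in KO 4 (-0.78 on the log2 scale, edgeR adjusted p = 0.119).

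Among 17 regulators, 2 fell (Gfi1 and Batf) and 0 rose, which is 11.8% and near the 10.0% of all genes. Of the 17, 8 had an unadjusted p under 0.05 in edgeR's test. Batf, an AP-1 factor, was at 153 ± 16.1 and 123 ± 3.26 CPM in the WT-labelled and KO-labelled sets (SD, n = 4 each, log2 difference -0.31 ± 0.07, edgeR adjusted p = 0.0191), and its call was lost without WT 1 (-0.31, adjusted p = 0.0578) as well as without KO 2 and KO 4 (adjusted p = 0.0972) and with the library code in the model (adjusted p = 0.113). Stat6, which carries the interleukin 4 signal to the nucleus, was at 252 to 259 CPM in the WT-labelled set and 259 to 294 CPM in the KO-labelled set (0.08, adjusted p = 0.329). Gata3 itself, Stat5a, Stat5b, Irf4, Nfil3 and Junb did not pass either.

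Among 12 surface receptors, 3 fell and 2 rose, which is 41.7% against the 10.0% of all genes. Il9r, the interleukin 9 receptor, was at 4.66 to 10.6 CPM in the WT-labelled set and 1.31 to 2.87 CPM in the KO-labelled set, -2.12 ± 0.32 on the log2 scale (edgeR adjusted p = 0.00256). Cd200r1, an inhibitory receptor, fell by 0.69 ± 0.13 on the log2 scale (adjusted p = 0.00927), with 28.2 to 38.6 and 16.9 to 25.1 CPM. Ccr8, a chemokine receptor of Th2 and regulatory T cells, fell by 0.64 ± 0.14 (adjusted p = 0.0186), from 65.5 ± 11.3 to 42.0 ± 6.09 CPM (SD, n = 4 each). The call of Ccr8 was lost without WT 1 (-0.61, adjusted p = 0.0584) and without WT 2 (adjusted p = 0.0535). With the library code in the model Cd200r1 and Ccr8 both lost their calls (adjusted p = 0.0526 and 0.0619), and so they did without KO 2 and KO 4 (0.0508 and 0.106), while Il9r passed in both fits.

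The receptors that rose were Il13ra1 and Il2rg. Il13ra1, a chain of the interleukin 13 receptor best known from non-lymphoid cells, was at 0.152 to 0.835 CPM in the WT-labelled set and 2.43 to 9.24 CPM in the KO-labelled set (3.49 ± 0.52, edgeR adjusted p = 0.00220). It was highest in KO 4, where the myeloid sum was highest as well, and the part of myeloid cells was not tested. Il2rg, the common gamma chain, rose by 0.23 ± 0.06 (adjusted p = 0.0283), and this call held in 2 of 8 leave-one-out fits, without WT 5 and without KO 4, with a highest adjusted p of 0.0962 without WT 1, and was lost without KO 2 and KO 4 (0.102). Il4ra (0.41, adjusted p = 0.0933), Ccr4, Crlf2, Icos and Il1rl1 did not pass.

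**Figure D4:**
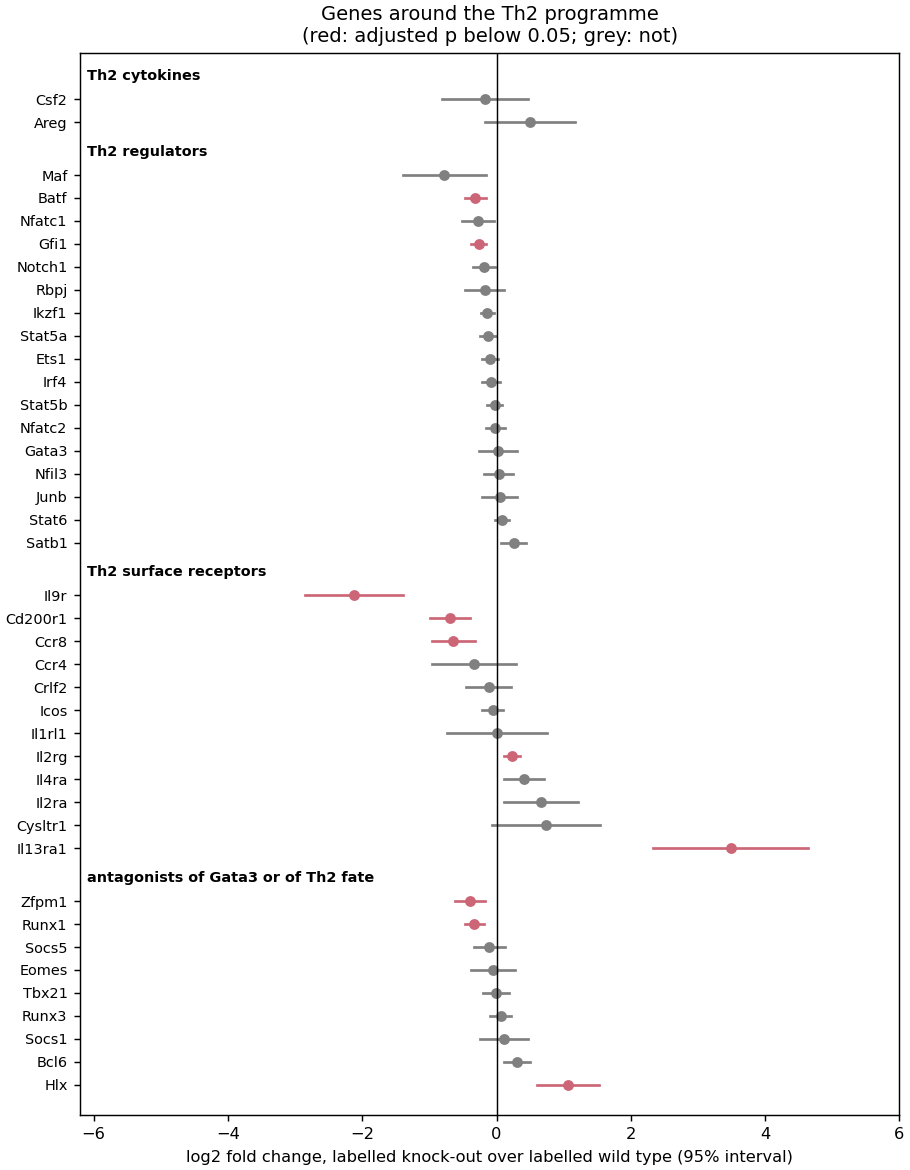
Log2 fold change (horizontal axis, points) with 95% interval (lines) for the Th2 cytokines, regulators and surface receptors with a row and for 9 antagonists, red where the adjusted p was below 0.05. Of the 31 Th2 genes 24 did not pass, Gata3 lies at 0.03, and Il9r (-2.12) and Il13ra1 (3.49) lie farthest from 0.

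Of 9 genes that act against Gata3 or the Th2 fate, 2 fell and 1 rose, which is 33.3% against the 10.0% of all genes. Runx1, which represses Gata3, fell with Gfi1: it was at 180 to 212 CPM in the WT-labelled set and 151 to 171 CPM in the KO-labelled set (-0.33 ± 0.06, edgeR adjusted p = 0.00767). Zfpm1, whose product FOG-1 binds Gata3, fell by 0.40 ± 0.10 on the log2 scale (adjusted p = 0.0332), and its call held in 2 of 8 leave-one-out fits, without WT 4 and without KO 5 (highest adjusted p = 0.0909, without KO 1). Hlx, a partner of Tbx21, rose from 1.54 ± 0.323 to 3.24 ± 0.631 CPM (SD, n = 4 each, 1.07 ± 0.21, adjusted p = 0.00950). It had only 48 to 142 counts per library. Within the KO-labelled set it was lowest in KO 1 and highest in KO 4, as was the myeloid sum, and the part of myeloid cells was not tested. With the library code in the model the calls of Runx1 (adjusted p = 0.0646) and Hlx (0.0673) were lost, and without KO 2 and KO 4 those of Zfpm1 (0.162) and Hlx (0.0636). In a list of 15 genes of the rival Th1, Th17 and regulatory types, all with a row, 0 passed in edgeR's test and 3 had an unadjusted p under 0.05, and DESeq2 and limma-voom also called 0. Their median log2 fold change was 0.01, and the smallest p-values were those of Cxcr3 (-0.24), Il22 (1.04) and Ctla4 (-0.26). Il22 passed without WT 5 (adjusted p = 0.0417) and with the host number as a block (1.03, adjusted p = 0.00568), but not without KO 5 (0.66, adjusted p = 0.350). The fit without KO 5 called 1 other gene in each direction, the higher one being Il12rb2 (0.41, adjusted p = 0.0150), a chain of the interleukin 12 receptor.

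Of 13 partners of Gfi1 with a row, 1 rose and 0 fell, which is 7.69% against the 10.0% of all genes, and 3 had an unadjusted p under 0.05. The median was -0.04 on the log2 scale, with Kdm1a, the demethylase of the complex, at 0.02 and Hdac1 at 0.01 on the log2 scale. The riser was Rcor2 (0.60 ± 0.16, edgeR adjusted p = 0.0472, lost in 6 of 8 leave-one-out fits and kept without WT 5 and without KO 2, highest adjusted p = 0.119 without WT 4), a relative of the corepressor Rcor1. Of 10 listed targets with a row, Gfi1 itself included, 4 rose and 2 fell, where 10.0% of all genes passed. The median was 0.28. Gfi1 itself is among the fallers, and Csf1r, a myeloid marker, is among the risers. Whether the targets answer to the lower Gfi1 was not tested.

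Il7r, the interleukin 7 receptor gene that Gfi1 represses, rose from 412 ± 106 to 698 ± 102 CPM (SD, n = 4 each, 0.76 ± 0.18, edgeR adjusted p = 0.0254). Its call was lost without WT 1, WT 4, KO 1 or KO 2 (adjusted p = 0.0574, 0.0736, 0.0692 and 0.0625). Cdkn1a, the cell cycle inhibitor p21, rose from 114 ± 6.38 to 161 ± 24.0 CPM (0.50 ± 0.10, adjusted p = 0.00913) in a call that held in all 8 such fits but not with the library code in the model (adjusted p = 0.0619). Csf1r (3.95), also a listed target, is a receptor of macrophages and belongs to the myeloid markers. Id3 rose (0.83, adjusted p = 0.0347) and Egr2 fell (-0.43, adjusted p = 0.0333), and each call held in 2 of the 8 fits, without WT 5 and KO 2 for Id3 (highest adjusted p = 0.101 without WT 4) and without WT 2 and KO 2 for Egr2 (highest adjusted p = 0.0964 without WT 1). The calls of Rcor2, Il7r, Id3 and Egr2 were also lost when the library code was modelled (edgeR adjusted p = 0.204, 0.0568, 0.210 and 0.196), and without KO 2 and KO 4 (0.131, 0.131, 0.05003 and 0.112).

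Of 17 genes of the family of Areg, for ligands, receptors and the enzymes that shed them, 6 had a row, of which 1 rose and 0 fell. That is 16.7% of the 6 against the 10.0% of all genes, and the median of the 6 was -0.05 on the log2 scale. Hbegf, the 1 other ligand with a row, was at 5.18 and 5.21 CPM in the WT-labelled and KO-labelled sets. Adam17, the protease that releases amphiregulin from the membrane, was at 161 and 149.5 CPM, a log2 difference of -0.10 (edgeR adjusted p = 0.440). Rhbdf2, the partner that brings Adam17 to the surface, rose from 73.1 ± 9.11 to 95.7 ± 5.42 CPM (SD, n = 4 each, 0.39 ± 0.09, adjusted p = 0.0204), and the call was lost without WT 2 or KO 1 (adjusted p = 0.0538 and 0.0598) and with the library code in the model (0.102), as well as without KO 2 and KO 4 (0.0587).

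The pathways of the listed genes not analysed here were followed through their other members. In the interleukin 10 family, to which Il24 belongs, 1 of 6 genes with a row fell and 0 rose (median -0.20). That is 16.7% against the 10.0% of all genes, and the faller was Il10 (-2.49, edgeR adjusted p = 0.0158). In the prostaglandin pathway, whose product prostaglandin D2 binds the receptor encoded by Ptgdr2, 3 of 8 genes with a row rose and 0 fell (37.5% called, median 0.08). These were Ptgs2 (3.79 ± 0.42, adjusted p = 0.000512), the prostaglandin D synthase gene Hpgds, at 1.11 ± 0.268 and 2.90 ± 0.801 CPM (SD, n = 4 each, adjusted p = 0.00767), and Ptgs1, at 0.984 and 2.22 CPM (1.17, adjusted p = 0.0468). The call of Hpgds was lost with the library code in the model (adjusted p = 0.0529) and without KO 2 and KO 4 (0.0510), and that of Ptgs1 in the same fits (0.290 and 0.214). The call of Ptgs1 held in 1 of 8 leave-one-out fits, without KO 1, and its adjusted p reached 0.123 without WT 4. In all 3, KO 1 had the lowest level in the KO-labelled set, as it had for the myeloid sum, and the part of myeloid cells was not tested. Of 6 genes that answer to interleukins 4 and 13 and had a row, 2 rose and 1 fell (median 0.25). The risers, Mrc1 (3.51) and Chil3 (3.70), are genes of macrophages, with means of 0.819 and 0.635 CPM in the WT-labelled set. The faller was Egr2, and Cish (0.01) and Socs1 (0.11) did not pass.

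Across libraries the 3 genes did not share a pattern. Pearson's r of log2 CPM over the 8 libraries is given as a description, since the libraries carry different labels. It was -0.212 for Gata3 and Gfi1, 0.160 for Gata3 and Areg and -0.332 for Gfi1 and Areg. Among 10093 ranked genes, the patterns most like that of Gata3 were Ttc27 (r = 0.973), Slc39a13 (0.941) and Mpp2 (0.935). Those most like Gfi1 were Hpcal1 (0.982), Pxmp4 (0.977) and Mettl7a2 (0.975), all lower in the KO-labelled set, and with label means subtracted their r was 0.914, 0.888 and 0.855. For Areg they were Scmh1 (0.980), Ssfa2 (0.975) and Zbtb40 (0.966), and without KO 4, an alternative added after the data were seen, their r was 0.875, 0.882 and 0.786. With that many genes and 8 libraries, high values of r arise in any ranking.

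The nearest genes with a row on either side did not pass. Taf3, 26599 bases from Gata3, had a log2 fold change of 0.03, and Celf2, on the other side, of -0.07. Rpap2 (-0.08) and Evi5 (0.39, edgeR adjusted p = 0.405) flank Gfi1 at 54802 and 18990 bases. Areg lies between Mthfd2l (-0.10) and Rchy1 (-0.01), at 118231 and 800410 bases.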

How the data were processed

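The submitters' processing notes name STAR and the build mm10; no source used here gives the counting tool, its annotation or its strand setting. Libraries were stranded TruSeq preparations of poly(A) RNA, per the labels' protocols, with single reads of 81 bases. The authors deposited raw counts per gene with Entrez identifiers and gene lengths in bases; 11337 of 11354 genes matched RefSeq's GRCm38.p6 table. No per-sample column was left unused.

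From the deposited counts, TMM factors, CPM and RPKM (with the deposited lengths) were computed in edgeR 4.0.16 (R 4.3.3). Genes kept by filterByExpr, all 11354, were fitted with estimateDisp, glmQLFit and glmQLFTest on the label alone and adjusted by Benjamini-Hochberg over all genes; a call is an adjusted p below 0.05. SE is the absolute log2 fold change over the square root of F, and 95% intervals use the fit's degrees of freedom. Single values were compared by two-sided exact permutation over libraries. Alternatives used limma 3.58.1, DESeq2 1.42.0 and the settings in the closing section. Counting error of the 3 genes (998 or more counts per library) was 1.61% to 2.86% of the level, well under the spread between libraries except for Gfi1 in the KO-labelled set, where 1.80% stands beside a spread of 1.90%.

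Genes named are the 3 genes with a row, Nlrp6, the called members of 11 lists (or the 3 of smallest p), the 3 genes most alike in log2 CPM (prior count 2, mean of at least 1), and the nearest neighbours; others are named as background or examples and were chosen with their values seen. Genes and lists were chosen with earlier results of these data known. The values of 1 listed regulator are not reported here.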

Additional observations from a re-analysis of the deposited data

Results flagged for a closer look

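In 2 of the 60 groups of 4 libraries formed by the named genes and labels, 1 library stood far from the other 3, measured as its gap to the nearest over the whole range and set against the 95% critical value of Dixon; chance gives about 1 in 20. Ccr8 was at 48.6 CPM in WT 4, against 69.9 to 72.6 CPM in the remaining WT-labelled libraries. Il10 was at 40.8 CPM in KO 4, against 6.34 to 10.3 CPM in the remaining KO-labelled ones. For the 3 Th2 linked genes the share stayed below that value, with 0.793 for Gata3 in WT 4 and 0.737 for Areg in KO 4 as the highest.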

How the results depend on the processing

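Beside the settings of the report, RLE factors, total library size, no filter and a filter of 1 CPM in 4 libraries moved no count of calls by over 1.5 times and turned none of the 3 genes. Gfi1 passed in all 17 fits that changed 1 setting or left out libraries, and at -0.14 relative to T cell markers it did not (exact permutation p = 0.0571). Gata3 was at -0.0268 with limma-voom and -0.10 with the library code as a term, and Areg at -0.0777 with the latter; the cause was not tested. Of 436 genes lower and 704 higher in all, the code left 249 lower. In the Th2 list (2 higher, 5 lower), DESeq2 called 4 higher, the fit without KO 2 and KO 4 called 1 higher, limma-voom called 8 lower and the code 3 lower. Counts of the epidermal growth factor list became 0 higher with the code and without KO 2 and KO 4. The interleukin 10 family had 2 lower with limma-voom and without KO 2 and KO 4, and the prostaglandin list 1 higher with the code and without KO 2 and KO 4. Gfi1 partners and targets (5 higher, 2 lower together) had 1 higher with the code and 2 without KO 2 and KO 4, and 1 lower in those fits and with limma-voom.

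Host numbers were not taken to pair libraries: deviations from label means correlated at -0.138 to 0.256 over the 4 numbers, and 3 of 8 libraries correlated best with their own number. With the host number as replicate block, Gfi1 was at -0.26 (edgeR adjusted p = 0.0326), Gata3 at 0.03 and Areg at 0.39. The block called 1 interleukin 10 family gene and 1 rival gene higher (Il22 in both), and 3 Gfi1 partners or targets higher and 1 lower.

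With 1 library left out in turn, Gata3 ran from -0.0912 (without WT 4) to 0.10 (without KO 2), Gfi1 from -0.30 to -0.23 and Areg from 0.08 to 0.69. Genes lower in all ran from 276 (without KO 1) to 509 (without KO 4) and genes higher from 516 to 709. The Th2 list had 1 to 2 higher and 3 (without WT 1) to 9 (without KO 4) lower. Gfi1 partners and targets had 2 to 5 higher and 1 to 2 lower, and the epidermal growth factor list 0 to 1 in each direction. The interleukin 10 family had 0 to 1 higher and 1 to 2 lower, the prostaglandin list 2 to 3 higher and 0 to 1 lower, and the rival list 0 to 1 in each direction. Csf2 ran from -0.345 (without WT 4) to 0.0111 (without KO 2). For Gfi1 in the KO-labelled set the spread between libraries (1.90% of the mean) is about that of counting error (1.80%).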
